A study of Mus musculus with 9 samples.

Results

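Retinas of mice with oxygen-induced retinopathy (OIR) that had received a hydrogel carrying procyanidin C1 were compared with OIR retinas that had received saline. The comparison rests on 6 of the 9 libraries of a bulk RNA sequencing study, 3 per group, and its groups are those that the labels give. It was chosen with earlier results of these data known, as were the gene lists and tests. Counts over lists are therefore descriptions. PBS libraries came from OIR mice given phosphate-buffered saline into the vitreous at postnatal day 15, and Gel libraries from OIR mice given PCC1/PHCF hydrogel by the same route on the same day. Retinas of both groups were collected at postnatal day 17. The other 3 libraries, labelled Normoxic, came from retinas of the same age without OIR. They entered the fit for its estimate of the spread, and their values are printed for orientation. No group received the hydrogel without procyanidin C1 (PCC1), so the drug and its carrier cannot be told apart here. The labels give 1 batch date for all libraries and do not say that the 3 libraries of a group came from separate animals. P-values therefore measure only the spread between these samples, part of which may be technical. Libraries are called PBS 1 to 3 and Gel 1 to 3 after the replicate numbers in the labels.

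In OIR, newborn mice are kept in high oxygen, which stops the growth of retinal capillaries and prunes those already there. After the return to room air the poorly perfused retina becomes hypoxic, makes vascular growth factors and grows misdirected vessel tufts, while Müller glia and astrocytes take on a reactive state. Senescent cells have left the cell cycle, usually hold high levels of inhibitors such as p16 and p21, and secrete inflammatory and matrix-degrading proteins. PCC1 is a plant polyphenol that the series title presents as a selective remover of such cells.

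Total counts were 29346869 to 35663470 in the 6 libraries. Levels of single genes are given in CPM, counts per 1e+06 counts after scaling between libraries by the trimmed mean of M values. Levels summed over a list are counts per 1e+06 total counts of the library, without that scaling. Several libraries stood apart in ways the groups do not explain. PBS 3 had relatively more counts in short genes: across genes, length and its log2 difference from both other PBS libraries had a Spearman correlation of -0.49, against -0.29 to 0.41 when each of the other 5 was set against its own group, and ribosomal protein genes took 2.68% of its counts against 1.08% to 1.66%. PBS 1 held Y-linked transcripts (2165 counts of Eif2s3y and 964 of Ddx3y), which had 0 counts in each of the other 8 libraries. PBS 1 thus held tissue of a male and the other libraries did not, so it came from a different animal than PBS 2 and PBS 3. The labels give no sex. Sex was not balanced between PBS and Gel, and its part in the differences was not tested and cannot be told apart from other traits of PBS 1. Gel 2 held transcripts of ocular surface epithelium, with 761 counts of the keratin gene Krt5 against 0 to 3 in the other 5, and a summed level of 81.1 CPM over 12 such genes against 1.33 to 2.00 CPM. Rods, the main cell type of the mouse retina, were represented in every library, with 66100 to 92320 CPM summed over 19 rod genes. Most gene groups are therefore described also without PBS 3 and, in part, without PBS 1 or Gel 2.

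No gene passed the corrected test. Of 17362 genes with sufficient counts, edgeR called 0 (0%) at an adjusted p under 0.05, the smallest adjusted p being 0.117. At an unadjusted p under 0.05 there were 961, of which 654 were lower in Gel (3.77% of genes tested) and 307 higher (1.77%). DESeq2 called 61 genes on the same counts, 49 lower (0.282%) and 12 higher (0.0691%), and limma-voom called 0. The 3 Gel values lay below the 3 PBS values in 856 genes (4.93%) and above them in 638 (3.67%). Such genes are called separated in what follows, and these percentages are the background for every count of list members. The median log2 fold change of all genes was -0.01. A difference of at least 2-fold was fitted for 315 genes in the lower and 116 in the higher direction. Without PBS 3, edgeR called 6 genes, 5 lower and 1 higher. Left out singly, PBS 1 gave 2 calls, PBS 2 gave 12 and each of the 3 Gel libraries gave 0. At an unadjusted p under 0.05 the share of lower genes was 3.19% without PBS 1, 4.91% without PBS 2 and 4.46% without PBS 3. It was 2.7% without Gel 1, 3.5% without Gel 2 and 3.22% without Gel 3. The share of higher genes was 1.24%, 3.04% and 2.86% without PBS 1 to 3, and 1.5%, 1.51% and 1.52% without Gel 1 to 3. These shares are the backgrounds for such counts with 1 library left out.

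The lower side was led by genes of contractile cells, reactive glia and the response to heme and hypoxia, and the higher side by a mixed set of neuronal, glial and lipid genes. Among genes averaging 1 CPM or more whose symbol is established, the 15 lower genes with the smallest p were Acta2, Tagln, Hmox1, Prss56, Ndufa4l2, Nupr1, Ecel1, Gfap, Tagln2, S100a11, Ctsc, Bgn, Esm1, Pcolce and Crym. The higher genes included Vgf, Steap4, Plcb1, Egfr, Crh, Hepacam, Lcn2, Gsg1l2, Shc3, Trhde, Nrip3, Gabrg3, Mafa and Scara5. All of these were separated, and none of them had an edgeR adjusted p under 0.05. The gene with the smallest p of all, BC055402, falls outside the naming rule because its symbol is a clone name, and is described after its values were seen. It was at 1.53, 4.04 and 3.22 CPM in PBS 1 to 3, 12.8, 10.5 and 13.3 CPM in Gel 1 to 3 and 22.2, 20.7 and 16.6 CPM in Normoxic 1 to 3. Every Gel value was at least 2-fold above every PBS value and below every Normoxic value (log2 fold change 2.06 ± 0.28 standard error, SE, edgeR adjusted p = 0.117, 0.0426 without PBS 3).

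**Figure D1:**
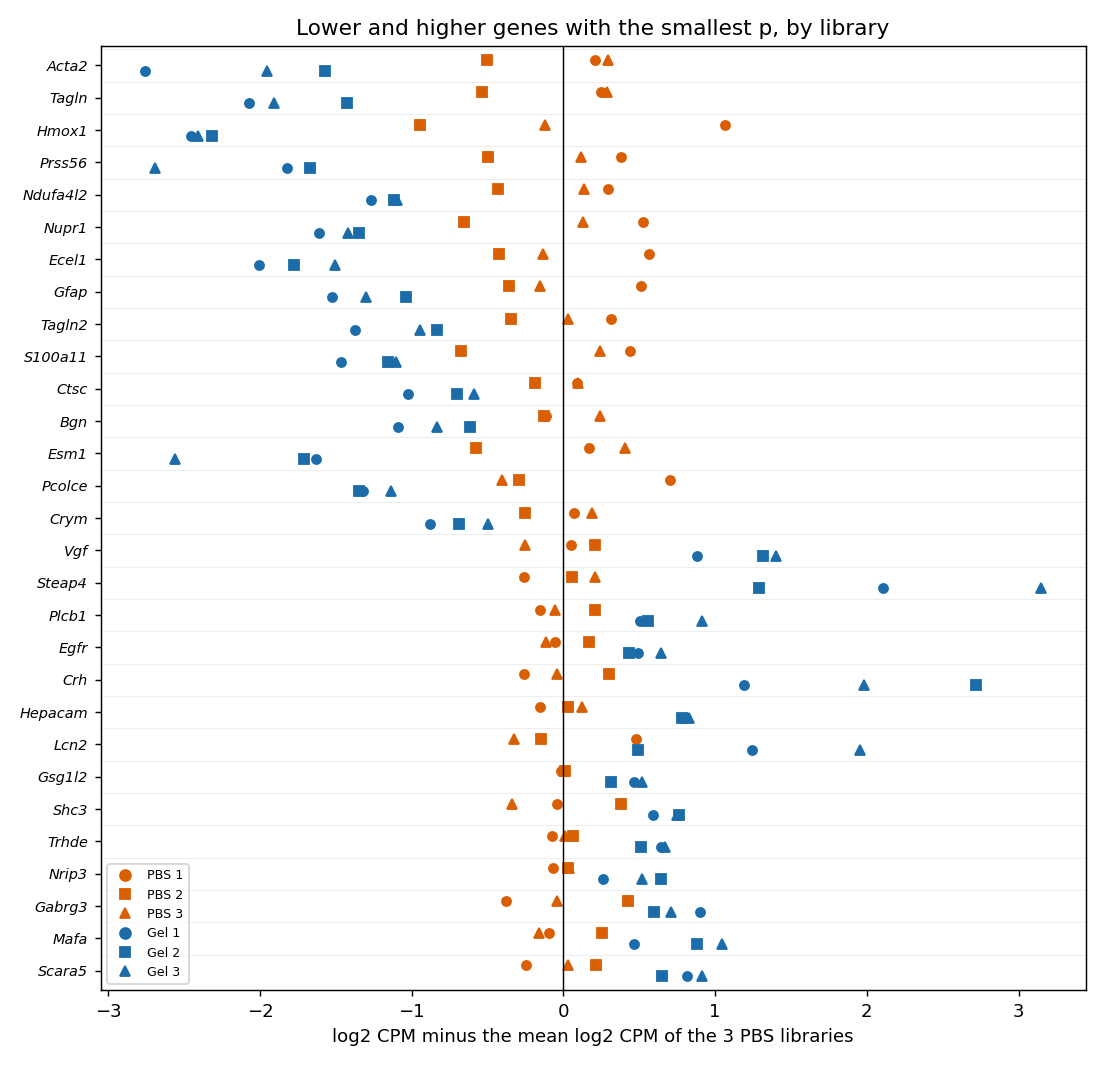
Each point is 1 library: log2 CPM minus the mean log2 CPM of the 3 PBS libraries (horizontal axis) for 15 lower and 14 higher genes among those with the smallest p (vertical axis), PBS in orange and Gel in blue, with a marker shape per replicate number. In each gene the Gel points lie on one side of the PBS points; Steap4, Crh and Esm1 have widely spread Gel points, and Hmox1 has 3 Gel points close together and widely spread PBS points.

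Genes of contractile cells around vessels were lower in the Gel libraries. Acta2 (Entrez 11475), which encodes smooth muscle actin of arteriolar muscle, activated pericytes and myofibroblasts, was at 36.2, 22.01 and 38.3 CPM in PBS 1 to 3 and 4.57, 10.4 and 8.01 CPM in Gel 1 to 3. The lowest PBS library was about 2-fold above the highest Gel library, and Normoxic retinas held 2.71, 3.23 and 2.99 CPM. The fitted difference was 4.18-fold (log2 fold change -2.06 ± 0.28, edgeR adjusted p = 0.117, 0.0426 without PBS 3). Tagln, an actin-binding protein of the same cells, was at 17.7, 10.3 and 18.2 CPM in PBS and 3.495, 5.51 and 3.92 CPM in Gel, again with PBS 2 the lowest of its group and Gel 2 the highest of its own (-1.83 ± 0.26, adjusted p = 0.117). DESeq2 called both genes (adjusted p = 1.04e-08 and 5.14e-08). Desmin (Des), the intermediate filament of muscle cells, was at 5.44, 5.39 and 9.01 CPM in PBS and 1.95, 3.05 and 3.24 CPM in Gel, with every Gel library lower. Myl9, a myosin light chain of smooth muscle that no list holds and that was picked after its values were seen, had 26.4, 19.7 and 40.4 CPM in PBS and 8.97, 14.7 and 15.1 CPM in Gel, also without overlap.

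Of 14 pericyte and smooth muscle markers, 13 were tested. In 11 the Gel mean was lower, 6 had an unadjusted p under 0.05 in that direction (background 3.77%) and 4 were separated in it (background 4.93%), with a median log2 fold change of -0.57 against -0.01 for all genes. The median was -0.35 without PBS 3, -0.78 without PBS 1 and -0.68 without Gel 2, and 6 members were separated in each of these (backgrounds 10.4%, 8.29% and 8.43%). At an unadjusted p under 0.05 there were 4 without PBS 3 and 4 without Gel 1 (backgrounds 4.46% and 2.7%). The separated members were Acta2, Tagln, Des and Ndufa4l2, which is described with the hypoxia genes. In the other 9 the groups overlapped, with log2 fold changes from -1.02 for Higd1b (-0.56 without PBS 3) to 0.10 for Mylk, and examples were chosen after their values were seen. Rgs5, a regulator of G protein signalling in pericytes, was at 155, 213 and 311 CPM in PBS and 119, 174 and 164 CPM in Gel (-0.57 ± 0.22). The receptor Pdgfrb was at 43.3, 44.4 and 37.1 CPM in PBS and 41.9, 39.6 and 33.6 CPM in Gel, with overlapping groups (-0.12 ± 0.14). Kcnj8, a potassium channel subunit, was at 8.78, 8.34 and 13.5 CPM in PBS and 8.27, 11.4 and 9.84 CPM in Gel (-0.05 ± 0.21, 0.20 without PBS 3). In RNA from whole retina, fewer cells of a type and less RNA per cell cannot be told apart. Cells of the outer coat of the eye also hold contractile and matrix genes: 9 fibroblast and scleral genes summed to 123 to 126 CPM in PBS 1 to 3 and to 56.4, 100.2 and 98.9 CPM in Gel 1 to 3. Of these, 7 were tested and all 7 were lower on average in Gel. Their median was -0.78 (-0.47 without Gel 1), with 4 separated (background 4.93%) and 1 at an unadjusted p under 0.05 (background 3.77%). The part of such cells in the contractile genes was not tested.

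Reactive glia genes were lower on average in Gel, with 2 exceptions. Gfap (Entrez 14580), an intermediate filament that Müller glia and astrocytes make when reactive, was at 367, 199.96 and 231 CPM in PBS and 89.1, 125 and 104 CPM in Gel. PBS 1 was the highest by far, and every Gel library was below every PBS library. The fitted difference was 2.51-fold (log2 fold change -1.33 ± 0.24, edgeR adjusted p = 0.299, DESeq2 adjusted p = 0.000213), and Normoxic retinas were at 17.2, 27.5 and 20.2 CPM. Serpina3n, a protease inhibitor that marks reactive glia across the nervous system, had 120.05, 41.5 and 46.997 CPM in PBS and 19.8, 20.6 and 23.8 CPM in Gel. The 3 Gel libraries were close to each other and below each PBS library, of which PBS 1 was the highest (-1.70 ± 0.34, -1.05 without PBS 1). Timp1, an inhibitor of matrix proteases, also differed without overlap, with 6.68, 2.81 and 2.75 CPM in PBS and 1.75, 1.31 and 1.65 CPM in Gel (-1.38 ± 0.37). Fgf2, a growth factor that injured photoreceptors and glia make, was at 121, 66.6 and 55.2 CPM in PBS and 53.4, 41.6 and 48.9 CPM in Gel, with Gel 1 just under PBS 3 (-0.75 ± 0.24).

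In several signalling genes of this list PBS 3 lay at the Gel level, so that the groups overlapped. Edn2, which encodes the peptide endothelin 2 that stressed photoreceptors release, was at 55.7, 28.3 and 9.53 CPM in PBS and 13.2, 4.54 and 8.63 CPM in Gel. PBS 1 and PBS 2 were high, and PBS 3 lay inside the Gel range (-1.83 ± 0.53, edgeR adjusted p = 0.62, 0.0555 without PBS 3, log2 fold change -1.11 without PBS 1). Bcl3, a nuclear partner of NF-kB subunits, was at 16.5, 8.11 and 2.02 CPM in PBS and 1.98, 0.828 and 2.18 CPM in Gel. PBS 3 was again at the Gel level, and without it the groups were separated and edgeR called the gene (-2.42 ± 0.62 with all libraries and -2.89 without PBS 3, adjusted p = 0.576 and 0.0426, log2 fold change -1.60 without PBS 1). Socs3, the feedback inhibitor of cytokine receptors that signal through STAT3, was at 29.2, 14.1 and 7.63 CPM in PBS and 7.73, 4.34 and 7.75 CPM in Gel. Stat3 itself was at 229, 142 and 120.4 CPM in PBS and 139, 119.8 and 111 CPM in Gel. In both genes PBS 1 was the highest library and PBS 3 lay inside the Gel range (-1.36 ± 0.41 and -0.41 ± 0.20, and for Socs3 -0.72 without PBS 1).

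In 18 of the 20 tested reactive glia genes (21 listed) the Gel mean was lower. At an unadjusted p under 0.05, 16 were lower (background 3.77%) and 2 higher (background 1.77%), and 10 were separated in the lower direction and 2 in the higher one (backgrounds 4.93% and 3.67%). The median log2 fold change was -0.93, -1.06 without PBS 3, -0.66 without PBS 1 and -1.02 without Gel 2. Without PBS 3, 15 of them were separated in the lower direction (background 10.4%). The 2 that went the other way were Steap4 and Lcn2. Steap4, a reductase of iron and copper, was at 0.573, 0.728 and 0.819 CPM in PBS and 3.23, 1.798 and 6.69 CPM in Gel. Every Gel library was more than 2-fold above every PBS library, with Gel 3 the highest (2.46 ± 0.46, edgeR adjusted p = 0.303, DESeq2 adjusted p = 0.000317, 1.83 without Gel 3). Lcn2, a secreted protein that binds bacterial iron carriers, was at 21.1, 13.6 and 12.1 CPM in PBS, 35.996, 21.3 and 59.003 CPM in Gel and 2.48, 3.81 and 2.99 CPM in Normoxic. Gel 2 and PBS 1 were nearly equal, so that the groups only just did not overlap (1.31 ± 0.33, adjusted p = 0.576).

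**Figure D2:**
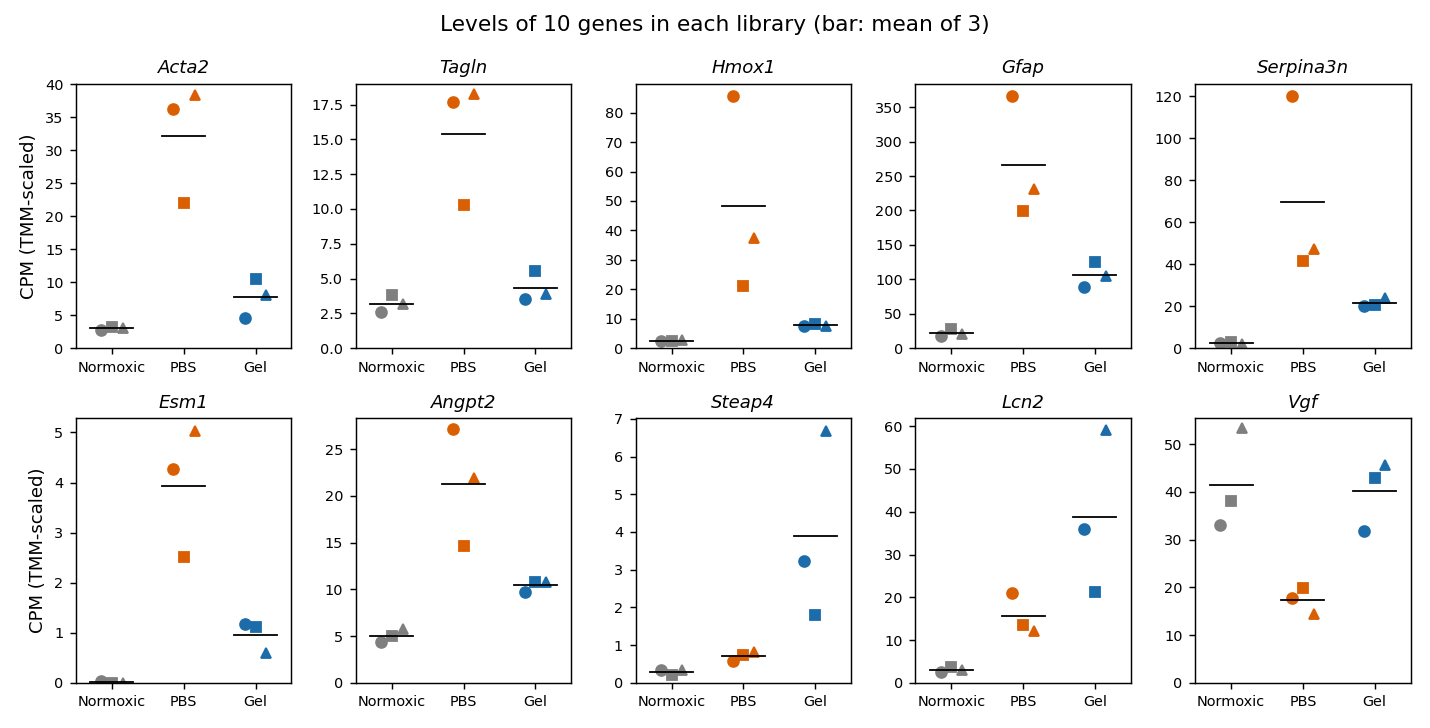
CPM (vertical axis, linear from 0) in each of the 9 libraries for 10 genes, grouped as Normoxic, PBS and Gel; points are libraries and the bar is the mean of 3. Acta2, Tagln, Hmox1, Gfap, Serpina3n, Esm1 and Angpt2 have every Gel point below every PBS point, and Steap4, Lcn2 and Vgf have every Gel point above.

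Some markers of resting Müller glia showed small differences in the opposite direction, but the list as a whole was not higher in every Gel library. Aqp4, the water channel of glial endfeet, was at 49.3, 54.01 and 48.96 CPM in PBS and 57.9, 65.7 and 67.6 CPM in Gel. Kcnj10, their potassium channel, was at 50.8, 65.6 and 54.4 CPM in PBS and 70.2, 71.1 and 75.6 CPM in Gel. Both were separated, with Normoxic values of 85.7, 79.7 and 75.7 CPM for Aqp4 and 79.7, 69.7 and 85.4 CPM for Kcnj10 (0.33 ± 0.10 and 0.35 ± 0.12, edgeR adjusted p = 0.65 and 0.749). Of the 15 listed, 11 had the higher mean in Gel and 2 were separated in that direction (background 3.67%), with a median of 0.10 and 2 at an unadjusted p under 0.05. Relative to the PBS mean, the list mean on the log2 scale was -0.146, 0.089 and 0.172 in Gel 1 to 3. It was -0.096, -0.065 and 0.161 in PBS 1 to 3, so Gel 1 was the lowest library. Without PBS 3 the median was 0.18, with 4 separated (background 9.02%) and 7 at an unadjusted p under 0.05 (background 2.86%), and without PBS 1 it was 0.02, with 1 (background 1.24%). Slc14a1, a urea transporter placed with the retinal astrocyte markers, was at 36.1, 22.04 and 27.3 CPM in PBS and 14.4, 15.95 and 17.998 CPM in Gel, without overlap (-0.82 ± 0.17, adjusted p = 0.411). Hepacam, an adhesion protein of glial endfeet, was at 1.65, 1.89 and 2.02 CPM in PBS and 3.23, 3.22 and 3.33 CPM in Gel. The values within each group were close, and the 3 Gel values all exceeded the 3 PBS values (0.81 ± 0.20, adjusted p = 0.576). Prss56, a serine protease that Müller glia secrete and that influences eye growth, was at 76.1, 41.6 and 63.6 CPM in PBS, 16.5, 18.3 and 9.01 CPM in Gel and 13.3, 14.02 and 7.13 CPM in Normoxic (-2.05 ± 0.32, adjusted p = 0.179, DESeq2 adjusted p = 4.94e-07).

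Genes of sprouting vessels were lower in Gel in part of the list, and general endothelial markers had no common direction. Esm1 (Entrez 71690), a proteoglycan of endothelial tip cells, was at 4.26, 2.52 and 5.03 CPM in PBS and 1.18, 1.11 and 0.589 CPM in Gel. These levels rest on 134, 76 and 172 counts against 35, 39 and 20, and the lowest PBS library was more than 2-fold above the highest Gel library (log2 fold change -2.04 ± 0.39, edgeR adjusted p = 0.303, DESeq2 adjusted p = 0.000467). Angpt2, a ligand that loosens endothelial contacts with pericytes, was at 27.2, 14.7 and 21.9 CPM in PBS and 9.68, 10.8 and 10.8 CPM in Gel. The 3 Gel libraries were close to each other and lay below each PBS library (-1.03 ± 0.21, adjusted p = 0.336). Pgf, a ligand of the VEGF receptor Flt1, was at 10.7, 3.44 and 6.29 CPM in PBS and 2.12, 2.17 and 2.504 CPM in Gel, without overlap (-1.58 ± 0.42). Adm, which encodes adrenomedullin, a vasodilator under HIF control, was at 20.7, 5.03 and 11.2 CPM in PBS and 2.25, 2.14 and 5.302 CPM in Gel, with PBS 2 just below Gel 3 (-1.93 ± 0.47, -1.33 without PBS 1). Among adhesion and barrier genes of these cells, Robo4 was at 12.3, 10.03 and 11.03 CPM in PBS and 8.54, 8.96 and 8.19 CPM in Gel. Plvap, which forms the diaphragms of leaky capillaries, was at 8.65, 7.48 and 10.4 CPM in PBS and 7.23, 6.62 and 6.33 CPM in Gel. Both were separated by small margins (-0.38 ± 0.14 and -0.40 ± 0.16).

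All 22 listed sprouting and tip cell genes were tested. The Gel mean was lower in 18, with 9 at an unadjusted p under 0.05 (background 3.77%) and 7 separated (background 4.93%), and 1 and 2 in the higher direction (backgrounds 1.77% and 3.67%). The median was -0.29, -0.31 without PBS 3 and -0.23 without PBS 1. Vegfa (Entrez 22339), which drives endothelial sprouting, was at 655, 368 and 300.2 CPM in PBS and 335, 254 and 263 CPM in Gel. PBS 1 was high, and PBS 3 lay below Gel 1, so the groups overlapped (log2 fold change -0.64 ± 0.25, edgeR adjusted p = 0.821). Normoxic retinas held 221, 262 and 283 CPM, the range in which Gel 2 and Gel 3 lay. Vegfc, a ligand of lymphatic and venous growth, was at 1.495, 2.22 and 1.81 CPM in PBS and 3.26, 2.71 and 2.98 CPM in Gel, with every Gel library higher (0.69 ± 0.23, adjusted p = 0.704). Kdr, the main endothelial VEGF receptor, was at 141, 151 and 134 CPM in PBS and 179.9, 147 and 165 CPM in Gel, with Gel 2 inside the PBS range.

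General endothelial markers did not move in a common direction. Pecam1, an adhesion molecule of all endothelium, was at 26.2, 23.1 and 37.8 CPM in PBS and 24.7, 28.4 and 29.9 CPM in Gel. PBS 3 was the highest library and the groups overlapped, and the sign turned with that library (-0.07 ± 0.17 with all libraries, 0.17 without PBS 3, and 0.0085 without Gel 1). Of 22 endothelial markers, 10 had the lower and 12 the higher mean in Gel. At an unadjusted p under 0.05 there were 3 and 1 (backgrounds 3.77% and 1.77%), and 2 and 2 were separated (backgrounds 4.93% and 3.67%). The median was 0.06, and -0.04 without PBS 1. Without PBS 3 it was 0.18, with 1 and 5 at an unadjusted p under 0.05 (backgrounds 4.46% and 2.86%). Tek, the receptor of the angiopoietins, was at 2.58, 4.96 and 7.95 CPM in PBS and 5.78, 9.13 and 9.63 CPM in Gel (0.66 ± 0.35). Ptprb, the phosphatase that restrains it, was at 22.4, 23.6 and 24.3 CPM in PBS and 28.9, 27.6 and 28.6 CPM in Gel, with the Gel libraries all higher by a small margin (0.27 ± 0.11). Mfsd2a, a lipid transporter of barrier endothelium, was at 2.74, 5.86 and 6.61 CPM in PBS and 7.56, 9.73 and 9.28 CPM in Gel, with PBS 1 low and no overlap (0.80 ± 0.27, adjusted p = 0.704). Of 17 barrier and Norrin-Wnt genes, 12 had the higher mean in Gel and 1 was separated, with a median of 0.06 (0.006 without PBS 1).

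Hmox1 and most hypoxia genes had lower levels in Gel. Hmox1 (Entrez 15368), the enzyme that degrades heme and a target of NRF2, was at 85.7, 21.2 and 37.6 CPM in PBS, 7.39, 8.16 and 7.63 CPM in Gel and 2.58, 2.28 and 2.76 CPM in Normoxic. The Gel libraries differed by less than 1 CPM, while PBS 1 was 4-fold above PBS 2. The fitted difference was 6.23-fold (log2 fold change -2.64 ± 0.40, edgeR adjusted p = 0.166, -1.93 and 0.0371 without PBS 1, -2.79 and 0.0426 without PBS 3). Genes of red blood cells were also highest in PBS 1 and PBS 3. Summed over the list they were at 228, 119 and 300.2 CPM in PBS 1 to 3 and at 99.3, 124 and 132 CPM in Gel 1 to 3, and 5 of 6 tested members had an unadjusted p under 0.05 (background 3.77%), with a median of -1.49 (-1.11 without PBS 3, with 3 at an unadjusted p under 0.05). PBS 2 had a red blood cell level within the Gel range, and its Hmox1 level was more than 2-fold above the highest Gel library. That is 1 library, and the part of blood in the Hmox1 values was not tested. Mt2, a metal-binding metallothionein, was at 160.4, 83.6 and 137 CPM in PBS and 62.7, 72.6 and 89.1 CPM in Gel, with PBS 2 below Gel 3 (-0.76 ± 0.21). Of 24 NRF2 antioxidant genes, Hmox1 was the one that was separated, 2 had an unadjusted p under 0.05, and the median was -0.18 (0.04 without PBS 3).

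Ndufa4l2, a mitochondrial protein that HIF induces and that pericytes also hold, was at 105, 63.3 and 93.96 CPM in PBS, 35.4, 39.3 and 39.9 CPM in Gel and 4.92, 5.97 and 7.85 CPM in Normoxic. The 3 Gel libraries agreed closely and PBS 2 was again the lowest of its group (-1.19 ± 0.19, edgeR adjusted p = 0.189, DESeq2 adjusted p = 6e-05). Ankrd37, a short HIF target, was at 38.3, 18.5 and 27.1 CPM in PBS and 13.2, 17.04 and 19.1 CPM in Gel. Bnip3, which drives the removal of mitochondria, was at 147, 88.96 and 138 CPM in PBS and 54.2, 89.1 and 90.3 CPM in Gel. In both, PBS 1 and PBS 3 were high and PBS 2 lay inside the Gel range (-0.76 ± 0.23 and -0.68 ± 0.22). In 24 of 28 hypoxia and HIF target genes the Gel mean was lower, and 11 had an unadjusted p under 0.05 in that direction (background 3.77%). In that direction 3 were separated (background 4.93%), against 3 without PBS 1 (background 8.29%), 10 without PBS 3 (background 10.4%), 15 without PBS 2 (background 10.1%) and 6 without Gel 2 (background 8.43%). The count at an unadjusted p under 0.05 was 4 without PBS 1 (background 3.19%), 5 without Gel 3 and 19 without PBS 2. The median was -0.40, -0.48 without PBS 3 and -0.23 without PBS 1.

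Interferon response genes had the lower mean in Gel in every tested member. These genes are switched on when interferon receptors activate transcription factors that bind the interferon-stimulated response element, a pair of GAAA half-sites. Of 25 listed genes 24 were tested, and in 24 the Gel mean was lower, Stat2 being the exception without PBS 1 (0.05). At an unadjusted p under 0.05 there were 14 (background 3.77%), 8 without PBS 1 (background 3.19%) and 9 without Gel 1 (background 2.7%). With all libraries 19 were separated (background 4.93%). The median log2 fold change was -0.67 with all libraries and -0.67 without PBS 3, -0.57 without PBS 1 and -0.90 without Gel 2, and 20 to 22 members were separated in these (backgrounds 10.4%, 8.29% and 8.43%). Without Gel 1 the median was -0.55, the smallest difference among the 19 alternatives, and separated members were not counted there. No member passed the edgeR or the DESeq2 threshold. These genes are controlled together, so they are not independent measurements. Gel 1 had the lowest level of the list, with a mean of -1.04 relative to the PBS mean on the log2 scale, against -0.39 in Gel 2 and -0.64 in Gel 3, while PBS 1 to 3 lay at 0.16, -0.10 and -0.06.

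Promoter sequences are shown for 3 of these genes because they place the matches to the response element, searched as GAAA, 2 bases of any kind and GAAA, that many members share. They run from 250 bases before to 50 bases after the start of transcription, 5′ to 3′ in the direction of the gene, with the matches on either strand in capitals (TTTC, 2 bases and TTTC is the same element on the other strand, and overlapping matches are joined). They come from RefSeq on GRCm38.p6, whereas the submitters' processing notes name GRCm39. Ifit1 lies on the forward strand at chr19:34640639-34640938, Ifit3 on the forward strand at chr19:34583279-34583578 and Isg15 on the reverse strand at chr4:156200769-156201068.
Ifit1: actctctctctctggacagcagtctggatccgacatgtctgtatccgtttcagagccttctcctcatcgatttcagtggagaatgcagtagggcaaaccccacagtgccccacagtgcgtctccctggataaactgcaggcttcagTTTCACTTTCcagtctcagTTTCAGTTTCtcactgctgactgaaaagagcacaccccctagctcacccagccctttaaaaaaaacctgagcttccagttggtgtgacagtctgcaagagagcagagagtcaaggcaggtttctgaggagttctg
Ifit3: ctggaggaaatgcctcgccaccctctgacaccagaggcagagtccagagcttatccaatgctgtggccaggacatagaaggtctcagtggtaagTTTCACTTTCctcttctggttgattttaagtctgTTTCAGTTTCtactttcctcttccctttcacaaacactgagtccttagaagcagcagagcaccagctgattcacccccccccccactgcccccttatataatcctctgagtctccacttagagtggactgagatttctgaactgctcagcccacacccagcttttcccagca
Isg15: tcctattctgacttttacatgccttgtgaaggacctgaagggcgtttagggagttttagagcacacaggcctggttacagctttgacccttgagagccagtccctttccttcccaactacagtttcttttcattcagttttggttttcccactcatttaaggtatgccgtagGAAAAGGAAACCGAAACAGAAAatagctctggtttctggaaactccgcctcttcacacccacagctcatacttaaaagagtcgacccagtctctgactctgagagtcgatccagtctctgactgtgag
Ifit1 and Ifit3 hold 2 separate matches each, and Isg15 holds a run of 3 overlapping matches that starts 78 bases before the start of transcription. A window was at hand for 20 of the 24 tested members, and 12 of these held at least 1 match (60%), against 3.52% of 13495 tested genes with a window and 3.44% of all 32851 windows. A match is a description of the sequence and not evidence of binding.

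Ifit1, an RNA-binding antiviral protein with the promoter above, was at 25.96, 21.6 and 17.99 CPM in PBS, 7.33, 14.6 and 11.9 CPM in Gel and 6.93, 5.44 and 2.76 CPM in Normoxic (-0.95 ± 0.31, adjusted p = 0.667). Usp18, which removes ISG15 from proteins and dampens the receptor, was at 18.7, 12.9 and 12.9 CPM in PBS and 4.54, 9.36 and 7.81 CPM in Gel. Xaf1, a pro-apoptotic interferon target, was at 24.7, 20.1 and 20.2 CPM in PBS and 10.3, 13.2 and 13.02 CPM in Gel. Both were separated, with Gel 1 the lowest and PBS 1 the highest (-1.03 ± 0.31 and -0.83 ± 0.24). Ifit3 was at 69.9, 47.4 and 52.7 CPM in PBS and 19.6, 37.5 and 33.8 CPM in Gel. Isg15, a ubiquitin-like modifier, was at 18.9, 15.2 and 25.6 CPM in PBS and 7.53, 14.98 and 11.02 CPM in Gel, with Gel 2 at almost the level of PBS 2. Irf7, a factor that amplifies the response, overlapped with 66.9, 57.8 and 71.8 CPM in PBS and 35.6, 78.4 and 30.3 CPM in Gel, Gel 2 being the highest of all 6 libraries. Stat2, a signal transducer of the receptors, was at 84.01, 76.5 and 44.8 CPM in PBS and 71.99, 64.2 and 52.6 CPM in Gel, with PBS 3 the lowest.

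**Figure D3:**
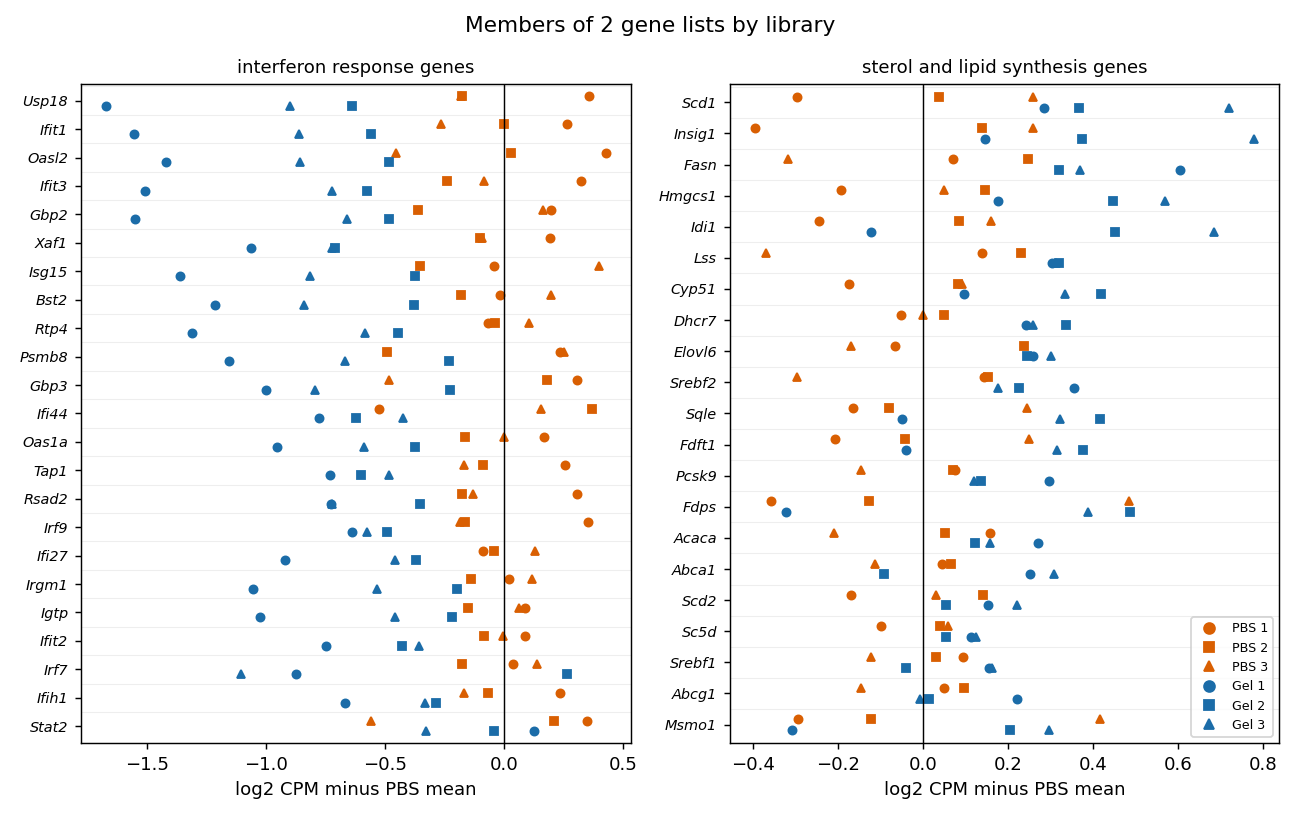
Log2 CPM minus the mean of the 3 PBS libraries (horizontal axis) for 23 tested interferon response genes (left) and 21 tested sterol and lipid synthesis genes (right); each point is 1 library, PBS in orange and Gel in blue. The Gel points of 18 of these interferon genes lie below all PBS points, and those of 9 of these sterol and lipid genes lie above.

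Antigen presentation, complement and microglial genes were lower to a smaller extent. B2m, which encodes the invariant chain of class I molecules, was at 65.1, 59.8 and 91.3 CPM in PBS and 38.4, 53.02 and 50.96 CPM in Gel. Tap1, the peptide transporter that loads it, was at 20.7, 16.3 and 15.4 CPM in PBS and 10.4, 11.4 and 12.4 CPM in Gel. Both were separated (-0.60 ± 0.17 and -0.62 ± 0.20). The class II gene H2-Ab1 was at 8.62, 4.07 and 6.64 CPM in PBS and 2.22, 4.14 and 3.18 CPM in Gel, with PBS 2 just inside the Gel range (-1.02 ± 0.30). Of 16 MHC genes 14 had the lower mean in Gel, 6 of them with an unadjusted p under 0.05 (background 3.77%). In that direction 5 were separated (background 4.93%). The median was -0.47, and -0.39 without PBS 3. Without PBS 1 it was -0.30, with 3 at an unadjusted p under 0.05 (background 3.19%). Tap1 and Psmb8 belong to the interferon list as well.

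Microglia and macrophage markers were lower on average, in part through PBS 3. C1qb, a subunit of the first complement component that microglia make, was at 32.1, 25.4 and 48.2 CPM in PBS and 15.2, 24.5 and 24.1 CPM in Gel, with Gel 2 just below PBS 2 (-0.73 ± 0.25, -0.43 without PBS 3). Cd68, a lysosomal protein of phagocytes, was at 9.61, 6.69 and 11.1 CPM in PBS and 4.37, 6.42 and 5.33 CPM in Gel. Gpnmb, a protein of phagocytes loaded with debris, was at 11.4, 11.6 and 24.9 CPM in PBS and 8.402, 8.82 and 9.603 CPM in Gel. Both were separated, PBS 3 being the highest library (-0.76 ± 0.23 and -0.84 ± 0.34, -0.59 and -0.36 without PBS 3). The Gel mean was lower in 23 of 25 markers, of which 5 had an unadjusted p under 0.05 (background 3.77%) and 10 were separated (background 4.93%). The median was -0.52, and -0.23 without PBS 3 with 1 at an unadjusted p under 0.05 (background 4.46%). Without Gel 1 it was -0.33, also with 1 (background 2.7%). There were 9 without PBS 1 and 8 without PBS 2 (backgrounds 3.19% and 4.91%). C5ar1, the receptor of the complement fragment C5a, was at 1.84, 0.894 and 1.02 CPM in PBS and 0.235, 0.685 and 0.236 CPM in Gel (-1.68 ± 0.51, -2.40 without Gel 2). C3, the central complement protein, went the other way with 8.81, 5.16 and 6.14 CPM in PBS and 12.5, 8.903 and 11.8 CPM in Gel, every Gel library just above every PBS library (0.72 ± 0.23, edgeR adjusted p = 0.65). Among 18 complement and acute phase genes, 8 were lower and 2 higher at an unadjusted p under 0.05 (backgrounds 3.77% and 1.77%). The higher ones were C3 and Lcn2, and the median was -0.44. Without PBS 3 the median was -0.28, with 5 lower (background 4.46%), and without Gel 1 there were 4 lower (background 2.7%).

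Of the central genes of senescence, Cdkn1a overlapped between the groups, Cdkn2a was near the limit of detection and Cdkn2b was lower in every Gel library. Cdkn1a (Entrez 12575), which encodes p21, was at 29.8, 19.6 and 35.2 CPM in PBS and 23.8, 26.1 and 28.7 CPM in Gel. The Gel libraries lay within the PBS range (log2 fold change -0.11 ± 0.19, edgeR adjusted p = 0.987), the sign turned without PBS 3 (0.09), and Normoxic retinas were at 7.74, 7.87 and 9.27 CPM. Cdkn2a, the gene of p16, had 19, 2 and 16 counts in PBS 1 to 3 and 1, 4 and 3 counts in Gel 1 to 3, too few for the test and overlapping through PBS 2. Cdkn2b, its neighbour and the gene of p15, was at 1.65, 0.9598 and 1.199 CPM in PBS and 0.739, 0.485 and 0.501 CPM in Gel, with every Gel library lower (-1.15 ± 0.47, adjusted p = 0.843). Lmnb1, the lamin that senescent cells lose, was at 48.4, 49.3 and 44.5 CPM in PBS and 61.3, 50.7 and 49.4 CPM in Gel, with the Gel values just above (0.18 ± 0.11). Of 16 listed cell cycle inhibitors and senescence genes 15 were tested, 2 had an unadjusted p under 0.05 and 1 was separated in each direction. Their median was -0.14, and 0.08 without PBS 3.

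Targets of p53 and the BCL-2 family did not stand out from all genes. Among 23 p53 targets none had an unadjusted p under 0.05 and 1 was separated, with a median of 0.02 (0.09 without PBS 3). Of 17 BCL-2 family genes 15 were tested, 1 had an unadjusted p under 0.05 and the median was -0.04 (0.08 without PBS 3). Bcl2l1, the gene of the survival protein BCL-XL, was at 91.9, 81.7 and 103 CPM in PBS and 88.6, 96.6 and 93.1 CPM in Gel (0.01 ± 0.11, -0.07 without PBS 2 and -0.02 without Gel 2). Mcl1, another survival protein, was at 97.2, 92.5 and 97.01 CPM in PBS and 78.4, 88.1 and 92.6 CPM in Gel (-0.15 ± 0.10). Bcl2a1b, the member of leukocytes, was the one with an unadjusted p under 0.05, at 0.859, 1.29 and 1.52 CPM in PBS and 0.235, 0.828 and 0.442 CPM in Gel, with Gel 2 just below PBS 1 (-1.27 ± 0.53).

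Secretory genes of senescent cells were lower in part. Of 33 listed genes 26 were tested, 23 had the lower mean in Gel, 11 an unadjusted p under 0.05 (background 3.77%), and 8 were separated (background 4.93%). The median was -0.33, and -0.29 without PBS 3. Without Gel 1, 5 had an unadjusted p under 0.05. Those described above that belong to this list are Timp1, Fgf2, Pgf and Vegfa. Cxcl10, a chemokine that is also an interferon target, was at 1.37, 0.827 and 0.848 CPM in PBS and 0.269, 0.171 and 0.324 CPM in Gel, every Gel value under every PBS value at low counts (-1.98 ± 0.61, edgeR adjusted p = 0.65). Igfbp5, a binding protein of insulin-like growth factors, was at 137, 125 and 129 CPM in PBS and 96.6, 113 and 112 CPM in Gel, also separated (-0.28 ± 0.10). The classical cytokines were at the limit of detection: Il1b had 0, 2 and 4 counts in PBS against 1, 2 and 0 counts in Gel. For Tnf the counts were 2, 0 and 5 against 0, 1 and 0. No difference in these 2 genes was detectable at this depth.

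**Figure D4:**
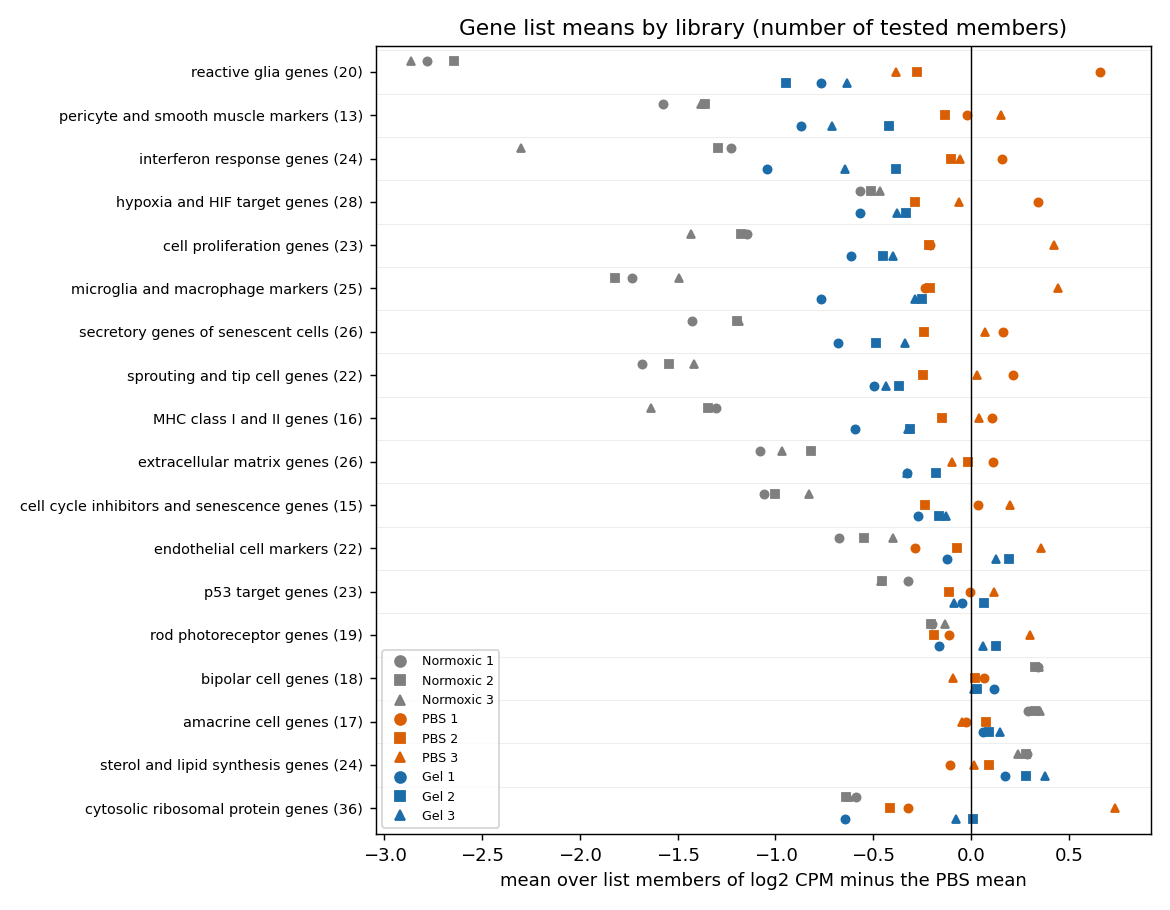
Mean over the tested members of 18 gene lists (vertical axis, number of members in brackets) of log2 CPM minus the PBS mean (horizontal axis), 1 point per library, Normoxic in grey, PBS in orange and Gel in blue. The Gel points lie to the left of all PBS points for interferon response, reactive glia, pericyte and smooth muscle, and senescent secretory genes, among others, and overlap them for endothelial, p53 target and ribosomal protein genes, where PBS 3 is the rightmost PBS point.

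Proliferation genes were lower, in part through PBS 3. Mki67, a protein of dividing nuclei, was at 3.82, 3.57 and 4.59 CPM in PBS and 1.38, 2.51 and 1.502 CPM in Gel. Ccnb2, a mitotic cyclin, was at 1.46, 2.32 and 2.78 CPM in PBS and 0.471, 1.03 and 0.854 CPM in Gel. Ccnd1, a cyclin of early cell cycle entry that Müller glia also hold, was at 44.02, 37.99 and 42.6 CPM in PBS and 22.5, 30.5 and 26.3 CPM in Gel. The 3 genes were separated, and DESeq2 called Ccnb2 and Ccnd1 (-1.15 ± 0.31, -1.47 ± 0.37 and -0.65 ± 0.13, edgeR adjusted p = 0.592, 0.576 and 0.351). Of 23 proliferation genes 20 had the lower mean in Gel, 5 an unadjusted p under 0.05 (background 3.77%) and 5 were separated (background 4.93%). The median was -0.59, and -0.18 without PBS 3, with 3 at an unadjusted p under 0.05 (background 4.46%). There were 3 without Gel 1 or Gel 2, 8 without PBS 1 and 10 without PBS 2.

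Matrix genes were lower in part. Biglycan (Bgn), a small proteoglycan, was at 34.9, 34.7 and 44.9 CPM in PBS and 17.8, 24.7 and 21.2 CPM in Gel. Pcolce, which speeds the trimming of procollagen and is not in the list, was at 87.3, 43.8 and 40.6 CPM in PBS and 21.5, 21.1 and 24.4 CPM in Gel. Loxl2, which crosslinks collagen, was at 36.9, 19.03 and 23.4 CPM in PBS and 13.9, 16.9 and 15.1 CPM in Gel. All 3 were separated (-0.85 ± 0.16, -1.36 ± 0.26 and -0.79 ± 0.21), and edgeR called Pcolce without PBS 3 (adjusted p = 0.0426). Of 28 listed matrix genes 26 were tested, 4 were lower and 1 higher at an unadjusted p under 0.05 (backgrounds 3.77% and 1.77%). In these directions 6 and 1 were separated (backgrounds 4.93% and 3.67%), and the median was -0.28 (-0.28 without PBS 3). S100a11, a calcium-binding protein, was at 22.1, 10.2 and 19.3 CPM in PBS and 5.85, 7.28 and 7.54 CPM in Gel (-1.32 ± 0.25). It was the 1 separated member of 15 tested annexins and S100 proteins (background 4.93%), although 15 had the lower mean in Gel. Of these, 6 had an unadjusted p under 0.05 (background 3.77%), and the median of the 15 was -0.52. Without PBS 3 that median was -0.21, with 1 at an unadjusted p under 0.05 (background 4.46%), as without Gel 1 (background 2.7%). Nupr1, a stress-induced nuclear protein, was at 24.5, 10.8 and 18.6 CPM in PBS and 5.51, 6.65 and 6.304 CPM in Gel (-1.54 ± 0.25, adjusted p = 0.189). Ecel1, a membrane peptidase that neurons make after injury, was at 7.47, 3.74 and 4.59 CPM in PBS and 1.21, 1.43 and 1.74 CPM in Gel (-1.85 ± 0.31). In Nupr1 and Ecel1 the Gel libraries were close together and below every PBS library.

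Sterol and lipid synthesis genes had the higher mean in Gel in 24 of 24 tested members, by less than 2-fold each. When membrane cholesterol is low, SREBP-2 turns on genes of cholesterol synthesis and uptake. Hmgcs1, an early enzyme of the sterol pathway, was at 75.6, 95.6 and 89.5 CPM in PBS, 97.8, 118 and 128 CPM in Gel and 123, 113 and 114 CPM in Normoxic. Every Gel library was higher, with PBS 1 the lowest of its group and Gel 1 of its own (0.40 ± 0.13, edgeR adjusted p = 0.65). In the list, 10 genes had an unadjusted p under 0.05 (background 1.77%), 12 were separated (background 3.67%) and the median was 0.25. Without PBS 3 the median was 0.29, with 16 separated (background 9.02%) and 12 at an unadjusted p under 0.05 (background 2.86%). Without PBS 2, 13 were separated (background 9.18%), and without Gel 2, 17 (background 7.1%). Without PBS 1 the median was 0.24, with 13 separated (background 6.44%) and 6 at an unadjusted p under 0.05 (background 1.24%), and there were 6 without Gel 2 or Gel 3 as well. The trend on gene length of log2 CPM, relative to the mean of all libraries, was also removed in each library before the fit. Then 13 of the sterol and lipid genes were higher at an unadjusted p under 0.05 (background 2.15%), and 15 of the interferon and 17 of the reactive glia genes were lower (background 4.06%). No sterol or lipid gene passed the edgeR or DESeq2 threshold.

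Of 14 tested members with a promoter window, Hmgcs1 alone held the sterol response element spelled TCAC, any base and CCAC (7.14%, against 1.24% of all windows), and its promoter is shown for that match. It lies on the forward strand at chr13:119690101-119690400 of GRCm38.p6 (RefSeq), with the match in capitals.
Hmgcs1: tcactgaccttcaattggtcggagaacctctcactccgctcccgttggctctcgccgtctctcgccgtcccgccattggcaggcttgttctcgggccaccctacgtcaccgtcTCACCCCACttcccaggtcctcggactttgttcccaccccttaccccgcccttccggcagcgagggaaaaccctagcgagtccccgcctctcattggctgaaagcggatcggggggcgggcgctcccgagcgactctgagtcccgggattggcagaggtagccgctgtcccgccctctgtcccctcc
The match starts 137 bases before the start of transcription. No match says only that these letters are absent from the window, and the element is known in several spellings. Likewise, 8 windows of contractile cell genes, among them those of Acta2 and Des, held no exact CArG box, the site of serum response factor, which 1.63% of all windows hold. It was searched as CCWWWWWWGG, with W for A or T, and no window was at hand for Tagln. The Acta2 window holds ccctatatgg and ccttgtttgg, each close to that spelling but not exact. The search therefore does not say that such sites are absent.

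Among the higher genes with the smallest p, several are neuronal. Vgf (Entrez 381677), a precursor of neuropeptides that rises with neurotrophins and activity, was at 17.8, 19.9 and 14.4 CPM in PBS, 31.8, 42.97 and 45.6 CPM in Gel and 33.03, 38.1 and 53.5 CPM in Normoxic. The lowest Gel library was more than 1.5 times the highest PBS library (1.21 ± 0.20, edgeR adjusted p = 0.194, DESeq2 adjusted p = 8.61e-05). Crh, the stress hormone precursor that some amacrine cells make, was at 0.318, 0.496 and 0.3802 CPM in PBS and 0.975, 2.94 and 1.74 CPM in Gel, a separation at low counts with Gel 2 the highest (2.24 ± 0.51). Plcb1, a phospholipase downstream of neurotransmitter receptors, was at 12.6, 16.2 and 13.5 CPM in PBS and 19.8, 20.6 and 26.4 CPM in Gel. Gabrg3, a subunit of GABA receptors, was at 6.902, 12.1 and 8.74 CPM in PBS and 16.8, 13.7 and 14.8 CPM in Gel. Egfr, the receptor of epidermal growth factor, was at 17.7, 20.8 and 17.1 CPM in PBS and 26.01, 24.9 and 28.9 CPM in Gel. These 3 were separated, with PBS 2 the PBS library nearest to Gel (0.66 ± 0.15, 0.71 ± 0.19 and 0.52 ± 0.12). Scara5, a ferritin receptor, was at 3.05, 4.24 and 3.71 CPM in PBS and 6.45, 5.74 and 6.89 CPM in Gel (0.79 ± 0.21).

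Neuron lists had medians close to that of all genes, and those of rod and ganglion cell genes depended on PBS 3. Gad1, which makes GABA, was at 217, 242 and 247 CPM in PBS, 259, 286 and 313 CPM in Gel and 353, 344 and 362 CPM in Normoxic. Slc6a9, the glycine transporter of amacrine cells, was at 231, 261 and 226 CPM in PBS and 309, 267 and 268 CPM in Gel. Both were separated by narrow margins (0.28 ± 0.11 and 0.23 ± 0.11, edgeR adjusted p = 0.792 and 0.916). Of 17 amacrine genes 15 had the higher mean in Gel, with a median of 0.10. In that direction 1 had an unadjusted p under 0.05 (background 1.77%) and 3 were separated (background 3.67%). Vsx1, a transcription factor of cone bipolar cells, was at 31.1, 30.6 and 33.2 CPM in PBS and 40.7, 37.9 and 42.3 CPM in Gel, with every Gel library higher (0.35 ± 0.10, adjusted p = 0.612). The 18 bipolar genes had a median of 0.03, the 16 ganglion cell genes of 0.02, the 19 rod genes of 0.01 and the 14 cone genes of -0.10, and 2, 1, 0 and 1 of their members were separated. Without PBS 3 these medians were 0.01, 0.17, 0.18 and 0.008, the amacrine median was 0.08, and 7 rod genes were separated in the higher direction (background 9.02%). Among cone genes the separated one was Gnb3, a G protein subunit that bipolar cells share, at 853, 607 and 690.3 CPM in PBS and 551, 522 and 559 CPM in Gel (-0.40 ± 0.13).

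Genes of the pigment epithelium, the layer behind the retina, differed between libraries of 1 group as well as between groups. Lrat, an enzyme of the visual cycle, was at 1.81, 1.62 and 3.77 CPM in PBS and 9.41, 10.99 and 5.74 CPM in Gel. Stra6, the vitamin A importer, was at 5.38, 8.41 and 12.7 CPM in PBS and 18.5, 20.1 and 15.1 CPM in Gel. Both were separated (1.85 ± 0.50 and 1.02 ± 0.30, edgeR adjusted p = 0.592 and 0.626). Rpe65, the isomerase of that cycle, was at 3.98, 4.402 and 10.03 CPM in PBS and 13.5, 14.7 and 11.2 CPM in Gel, with PBS 3 near the Gel level (1.09 ± 0.57). Mlana, a melanosome protein, went the other way with 0.414, 0.9598 and 4.09 CPM in PBS and 0.168, 0.371 and 0.265 CPM in Gel, through PBS 3 (-2.74 ± 0.81, -1.33 without it). Summed over 16 genes the list was at 419, 549 and 921 CPM in PBS 1 to 3 and at 631, 857 and 781 CPM in Gel 1 to 3, and its median was 0.33, 0.84 without PBS 3 and 0.002 without PBS 1. The amount of that layer collected with each retina is not stated, and its part in these values was not tested.

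Some differences were those of a single library. Hspa1b, an inducible heat shock protein, was at 41.2, 60.3 and 34.3 CPM in PBS and 359.8, 83.4 and 27.7 CPM in Gel. Gel 1 was the one that stood out, and Gel 3 was below all PBS libraries (1.79 ± 0.67, 0.30 without Gel 1). Hsph1, a co-chaperone, followed the same order with 87.2, 106 and 89.2 CPM in PBS and 286, 116 and 74.4 CPM in Gel (0.75 ± 0.38, 0.01 without Gel 1). Ribosomal protein genes and nuclear genes of oxidative phosphorylation had the lower mean in Gel in 36 of 36 and 34 of 34 tested members (medians -0.30 and -0.22). None of them was separated or had an unadjusted p under 0.05, and without PBS 3 the medians turned to 0.16 and 0.27. PBS 3 was the highest library for both lists, at 0.74 above the PBS mean on the log2 scale.

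**Figure D5:**
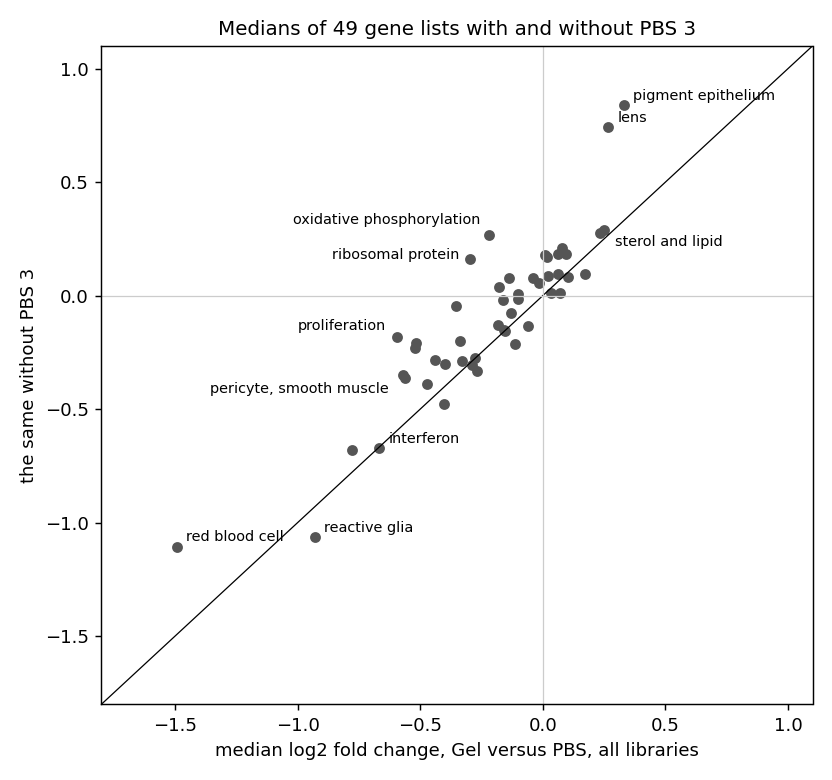
Median log2 fold change of 49 gene lists with all libraries (horizontal axis) and without PBS 3 (vertical axis); the diagonal marks equal values. Reactive glia, interferon and sterol genes lie near the diagonal, whereas ribosomal protein, oxidative phosphorylation, proliferation and pigment epithelium genes lie above it.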

How the data were processed

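Bulk RNA was sequenced in 9 libraries, 3 per group. The deposited table of whole-number counts per gene was used. The authors' FPKM table holds the same counts divided by the library total and 1 length per gene, and it gave only the gene lengths. Bowtie2, RSEM 1.3.1, DESeq2 1.4.5 and build GRCm39 are named, per the submitters' processing notes, without a role. The sources used here do not give the strand setting, so overlapping genes and near-identical copies are uncertain.

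Groups and replicate numbers came from the labels. Genes were kept by edgeR 4.0.16 (R 4.3.3) with a minimum count of 10, which left 17362 of 26683. Scaling used TMM (trimmed mean of M values), all 9 libraries were fitted by group, and Gel was tested against PBS by edgeR's quasi-likelihood test with Benjamini-Hochberg adjustment over all kept genes at 0.05. Log2 fold changes carry their SE. limma 3.58.1 (voom), DESeq2 1.42.0, other scalings and filters, removal of the length trend, a replicate block and each library left out were the alternatives. Counts of separated members without PBS 1, PBS 2, PBS 3 or Gel 2 were added after seeing the data.

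Named genes were the 15 lower and 15 higher with the smallest p among those with a mean of at least 1 CPM and an established symbol, up to 4 members with the smallest p of each of 53 gene lists, and a panel that included Vegfa, Gfap, Cdkn1a and Cdkn2a. BC055402, Myl9, Rgs5, Pdgfrb, Kcnj8, Ifit3, Isg15, Irf7, Stat2, Igfbp5 and Rpe65 were chosen after their values were seen. The comparison, its lists and tests were chosen with earlier results of these data known. Lists share members and are described by counts and medians beside those of all genes. A few genes that the rule names are not reported here, and they remain in the counts over lists.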

Additional observations from a re-analysis of the deposited data

How the results depend on the processing

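The count of genes past the edgeR threshold was 0. It was 61 with DESeq2, 24 without a low-count filter and 3 with the length trend removed, and 0 to 12 with single libraries left out. The cause was not tested. The lowest values came without any of the Normoxic or Gel libraries and the highest without PBS 2. It was 0 with the 6 libraries alone, limma-voom, both other scalings and the 1 CPM filter. With the replicate block it was 0, with 919 genes at an unadjusted p under 0.05 against 961, and the same holds for calls with the block and length removal together (0). Whether the replicate numbers pair the libraries cannot be decided from so few correlations. Same-numbered PBS and Gel libraries deviated with correlations of 0.33, -0.21 and 0.36, and differently numbered ones with -0.507 to 0.306. Of 1950 gene values recomputed under 19 alternatives, 1940 kept their direction. The exceptions were Pecam1 (-0.20 to 0.17 with single libraries left out), Cdkn1a (-0.30 to 0.088), Bcl2l1 (-0.067 to 0.10), Stat2 (-0.35 to 0.054) and Kcnj8 (-0.18 to 0.20, 0.0032 with the length trend removed and 0.019 with the replicate block as well). With 3 libraries a group, genes at a few counts could not be tested.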

Other observations

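Several further gene groups lay near the median of all genes or had few members past an unadjusted p of 0.05. Of 24 immediate early genes, which neurons and stressed cells switch on within minutes, 19 had the lower mean in Gel and 3 an unadjusted p under 0.05 (background 3.77%), with a median of -0.27 that was -0.03 without PBS 1, with 1 at an unadjusted p under 0.05 (background 3.19%). Ier3 was at 90.3, 50.1 and 96.1 CPM in PBS and 44.9, 49.3 and 55.5 CPM in Gel, with PBS 2 inside the Gel range (-0.66 ± 0.21). Of 21 genes of the unfolded protein and integrated stress responses 17 had the lower mean, with a median of -0.10 (-0.02 without PBS 3). Atf5, a transcription factor of mitochondrial stress, was at 70.3, 52.8 and 59.98 CPM in PBS and 50.6, 40.2 and 38.6 CPM in Gel, every Gel library lower (-0.50 ± 0.15). Tgfb2, a ligand of the TGF-beta family, was at 102, 93.7 and 92.2 CPM in PBS and 78.98, 74.99 and 81.5 CPM in Gel, also without overlap (-0.29 ± 0.09). The 21 genes of its list had a median of -0.13 (-0.08 without PBS 3).

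Among cytokines, chemokines and adhesion molecules 12 of 24 had enough counts for the test, and 3 were separated in the lower direction (background 4.93%). Ccl12, a chemokine that attracts monocytes, was at 1.65, 0.794 and 0.907 CPM in PBS and 0.403, 0.571 and 0.353 CPM in Gel (-1.33 ± 0.54). Of 10 neutrophil and 11 lymphocyte genes 1 and 2 were tested, and none of these had an unadjusted p under 0.05. Glucocorticoid-responsive genes had a median of -0.02 (0.06 without PBS 3) and circadian clock genes of 0.07 (0.01 without PBS 3). Lhx1, a transcription factor of horizontal cells, was at 5.22, 6.65 and 5.38 CPM in PBS and 9.31, 6.68 and 7.28 CPM in Gel, with Gel 2 just above PBS 2 (0.43 ± 0.18).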
